A study of Mus musculus with 29 samples.

Results

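The genes of 10 calcium-binding proteins were examined in 29 single retinal ganglion cells (RGCs), each hybridized to its own mouse genome array. They were chosen by name as members of the EF-hand and annexin families, and they are 10 of the 18194 genes with a value. The set holds the buffers *Pvalb* (parvalbumin), *Calb1* (calbindin) and *Calb2* (calretinin), the S100 gene *S100b*, the annexin *Anxa6*, the neuronal calcium sensors *Hpca* (hippocalcin), *Hpcal4*, *Ncald* (neurocalcin delta) and *Vsnl1* (visinin-like 1), and *Necab2*, an EF-hand protein of neurons. The cells came from retinas of adult C57BL/6 mice (C57BL/6J in the study's methods) and were classified by their light responses before they were aspirated. The 8 direction-selective (DS) cells comprised 4 ON-OFF DS and 4 ON DS cells. The 9 alpha cells comprised 2 ON alpha, 3 OFF T alpha (transient) and 4 OFF S alpha (sustained) cells. There were 2 orientation-selective (OS) cells, ON vOS and ON hOS. The 10 remaining cells were 2 SbC cells and 1 cell each labelled J-RGC, EyeWire 6sw, EyeWire 6sn, OFF high speed selective, EyeWire 4i, PixON, ON S non-alpha and LED. Cells are named by subtype and by their number in the labels. No source names the animal of a cell, so a subtype counts as 1 sample, and the values below are descriptions of these cells without a test.

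An EF-hand is a helix-loop-helix fold whose loop holds a calcium ion. Some EF-hand proteins, such as parvalbumin, calbindin and calretinin, are abundant and bind calcium as mobile buffers, which shapes the rise and decay of calcium after spikes. Others, the sensors, change shape on binding calcium and pass the signal to a target, and hippocalcin and visinin-like 1 thereby move to membranes through a lipid anchor. Annexins lack EF-hands and bind acidic membrane lipids when calcium rises. Antibodies against parvalbumin, calbindin and calretinin have long been used to tell classes of retinal neurons apart.

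Signals are linear MAS5 intensities scaled to a trimmed mean of 1500 on every array. The detection threshold was 2 times that mean, a signal of 3000. Before logs were taken, signals under 375 were set to 375, so the log2 floor is 8.55. Levels are compared between cells for a given probe set and never between genes. Detected genes per cell ranged from 1182 in SbC 26 to 4201 in EyeWire 6sw 21 with a median of 2908. At least 50% of the RGC markers with a value were detected in 26 of 29 cells, and the pan-RGC genes *Sncg* and *Uchl1* in all 29. EyeWire 6sw 21 and SbC 26 had the fewest RGC markers, 5 of 13. The summed RGC marker signal was 54504 in EyeWire 6sw 21 and 251661 or more in the other 28 cells. Photoreceptor genes were also present. At least 5 of the 10 rod markers with a value were detected in 18 cells, which are called rod-rich here, and they included 3 of 8 DS cells and 6 of 9 alpha cells. At least 50% of the 6 cone markers were detected in 12 cells, of which 1 was a DS cell, 1 an OS cell and 3 were alpha cells. Bipolar cell markers reached 5 of 8 in 1 cell and fewer in the rest, with *Vsx1* and *Trpm1* in none. The 5 horizontal cell markers were in no cell, and of 9 amacrine cell markers *Slc6a9* was in 8 cells, *Gad1* and *Slc32a1* in 4 each, *Gad2* in 2 and the remaining 5, among them *Tfap2a*, *Tfap2b* and *Chat*, in none. Of 10 Müller glia markers, *Clu* was in 27 cells, *Dkk3* in 21, *Glul* and *Rlbp1* in 11 each and *Vim* in 10. *Slc1a3* and *Aqp4* were in 1 cell each, and *Apoe*, *Kcnj10* and *Sox9* in none. Of 4 astrocyte markers with a value, *Aldoc* was in 29 cells, *Gfap* in 3, *Aldh1l1* in 2 and *Gja1* in none.

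Detection frequency separated the genes into a common and a rare set. *Calb2* and *Vsnl1* were detected in 24 of 29 cells each (82.8%, exact 95% Clopper-Pearson interval 64.2% to 94.2%). *Pvalb* and *Anxa6* were detected in 23 (79.3%, 60.3% to 92.0%), *Hpca* in 17 (58.6%, 38.9% to 76.5%) and *Calb1* in 14 (48.3%, 29.4% to 67.5%). *S100b* and *Hpcal4* were found in 6 cells each, *Necab2* in 5 and *Ncald* in 4. The intervals cover counting error only. All 10 genes thus reached 3 cells, against 39.1% of all genes, and 5 of the 10 reached 50% of the cells, against 10.6% of all genes. The set was chosen with such signals known, so these shares describe the choice and are read no further.

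**Figure D1:**
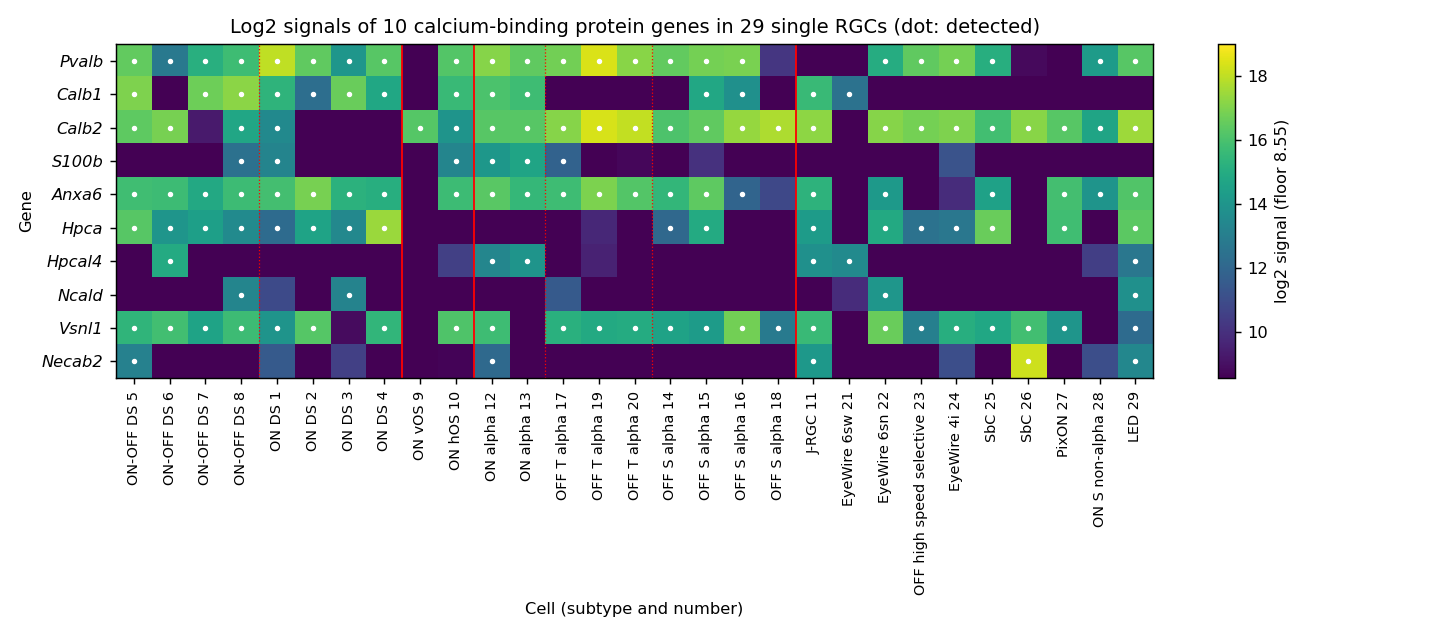
Log2 signals of the 10 genes (rows) in the 29 cells (columns), with the floor of 8.55 in the darkest color and a white dot where the gene was detected. Solid lines separate DS, OS, alpha and other cells, and dotted lines the subtypes of DS and alpha cells. *Calb2* is detected in all 9 alpha cells and *Hpca* in all 8 DS cells.

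The melanopsin gene *Opn4* had the profile most like that of *S100b* across the cells, so the 250 bases upstream of their RefSeq start sites are shown for both. The positions refer to build GRCm38.p6. The S100b window is chr10:76253586-76253835 on the plus strand and the Opn4 window is chr14:34600143-34600392 on the minus strand, each written 5′ to 3′ in the direction of transcription. Capitals mark CCAAT boxes on either strand (CCAAT or ATTGG).
S100b: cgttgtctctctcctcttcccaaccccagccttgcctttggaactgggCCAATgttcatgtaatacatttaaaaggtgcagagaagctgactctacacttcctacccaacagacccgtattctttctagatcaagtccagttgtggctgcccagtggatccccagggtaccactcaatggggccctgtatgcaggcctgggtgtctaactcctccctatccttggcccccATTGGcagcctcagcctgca
Opn4: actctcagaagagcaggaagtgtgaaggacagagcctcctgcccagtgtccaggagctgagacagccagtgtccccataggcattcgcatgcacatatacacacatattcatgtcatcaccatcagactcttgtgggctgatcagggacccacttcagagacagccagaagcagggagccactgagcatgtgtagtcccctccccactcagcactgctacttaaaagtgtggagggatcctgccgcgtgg
The S100b window held 2 CCAAT boxes, which began 202 and 20 bases before the start site, and the Opn4 window held none. Of all 32851 promoters in the table, 33.9% hold such a box in the same window. A TATA box (TATAAA, in 12.4% of all promoters), a GC box (GGGCGG, 32.7%) and a T-box core (GGTGTGA, 3.33%), each searched on both strands, matched in neither window. The GC content was 53.6% for S100b and 54.8% for Opn4, against a median of 52.4% over all promoters. The S100b window held 2 CG dinucleotides and the Opn4 window 3, against a median of 6. Promoters of 6 of the 10 genes were in the table. GC boxes were matched upstream of *Hpca*, *Hpcal4* and *Vsnl1*, and CCAAT boxes upstream of *Hpcal4* and *Vsnl1*.

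*Pvalb*, which marks fast-spiking neurons in cortex and many RGCs, was detected in nearly all DS and alpha cells. The ON-OFF DS cells had signals of 92223, 6959, 36289 and 54697, and the ON DS cells 262338, 90692, 16791 and 78966. All 8 DS signals were above the threshold. The ON alpha cells had 140677 and 89269, the OFF T alpha cells 111369, 345898 and 146272, and the OFF S alpha cells 92551, 114676, 121449 and 1188. OFF S alpha 18 alone among the alpha cells fell short of the threshold. The median signal was 66832 in DS cells (SD of log2 signals 1.62, n = 8) and 114676 in alpha cells (SD 2.34, n = 9), and the medians differed by -0.80 on the log2 scale, less than either SD. In the other subtypes *Pvalb* was detected in 6 of 10 cells, with a lowest signal of 9 in PixON 27, a median of 26825 and a highest signal of 116067 in EyeWire 4i 24. ON hOS 10 had 76242 and ON vOS 9 had 18. Of the 6 cells without *Pvalb*, 5 were rod-rich, the exception being J-RGC 11, and over the 29 cells the log2 signal had r = -0.29 with the mean rod marker level, -0.57 with the cone and -0.47 with the bipolar cell marker level. The part of such RNA in these values was not tested.

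*Calb1*, a buffer of Purkinje cells and horizontal cells, was frequent in DS cells. The ON-OFF DS cells had signals of 127451, 60, 105542 and 148187, and the ON DS cells had 41676, 5191, 99770 and 27936. ON-OFF DS 6 was the only DS cell without it. Among alpha cells, both ON alpha cells had high signals, 67905 and 54576. The OFF T alpha cells had 18, 294 and 34, and the OFF S alpha cells had 38, 28659, 14176 and 56. The 3 OFF T alpha cells were thus all below the threshold, while OFF S alpha 15 and 16 were above it. Outside these classes *Calb1* was detected in ON hOS 10 (50893), J-RGC 11 (51365) and EyeWire 6sw 21 (5737). Of 3 further *Calb1* probe sets, 1 was detected in ON-OFF DS 6 (7791), where the main one was not, 1 in ON DS 2 (25817) and 1 in no cell.

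*Calb2*, calretinin, showed the other distribution. The ON-OFF DS cells had signals of 87132, 120007, 639 and 27225, and the ON DS cells 11810, 34, 23 and 11. ON DS 1 was thus the only ON DS cell with *Calb2*. All 9 alpha cells had it, with signals of 80443 and 79733 in ON alpha, 139508, 333844 and 272176 in OFF T alpha, and 69096, 89264, 164525 and 213912 in OFF S alpha cells. All DS cells but ON-OFF DS 5 and 6 lay below the lowest alpha signal. In the other subtypes 9 of 10 cells had *Calb2*, between 25508 in ON S non-alpha 28 and 183880 in LED 29, and EyeWire 6sw 21 had 143. ON vOS 9 had 78643 and ON hOS 10 had 15969. The subtypes with more than 1 cell were ordered by median signal as OFF T alpha (272176), OFF S alpha (126895), SbC (102382), ON alpha (80088), ON-OFF DS (57178) and ON DS (28.9). Each neighbouring pair in this order overlapped in range.

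*S100b*, best known from astrocytes and Müller glia, was detected in 6 cells. Its signals were 25986 in ON alpha 13, 17240 in ON alpha 12, 10244 in ON hOS 10, 9793 in ON DS 1, 5514 in ON-OFF DS 8 and 3699 in OFF T alpha 17. The remaining 23 cells had at most 2417 (EyeWire 4i 24). At this main probe set both ON alpha cells exceeded the 27 others. A second *S100b* probe set was detected in 4 of the 6 cells and in no other cell. Its log2 signals correlated with the main probe set (r = 0.84, n = 29 cells). The cells it missed were ON alpha 13 (1756) and ON-OFF DS 8 (34). ON alpha 13 thus lay there below ON DS 1 (14476), OFF T alpha 17 (7160) and ON hOS 10 (3748). Between 1 and 5 of the 10 Müller glia markers were detected in the 6 cells, against 0 to 6 over all cells. The correlation of *S100b* with the mean marker level was r = 0.09 for Müller glia and r = 0.17 for astrocytes, and 0.60 for the 2 alpha RGC markers with a value.

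*Anxa6*, a large annexin of the plasma membrane and endosomes, was detected in all 8 DS cells, in signals from 29734 (ON-OFF DS 7) over a median of 54012 to 119687 (ON DS 2). It was detected in 8 of 9 alpha cells, where the lowest signal was 1804 (OFF S alpha 18), the median 55362 and the highest 125438 (OFF T alpha 19). The medians of DS and alpha cells differed by -0.04 on the log2 scale. In the other subtypes it was in 6 of 10 cells, with a median signal of 17038. A second *Anxa6* probe set was detected in 22 cells, all of them with the main one, and correlated with it at r = 0.93. All 6 cells without *Anxa6* were rod-rich, and it was detected in 11 of the 11 cells that were not rod-rich and in 12 of 18 that were. Its log2 signal had r = -0.61 with the mean rod marker level, r = -0.60 with the cone and r = 0.72 with the RGC marker level over the 29 cells. The part of photoreceptor RNA in these values was not tested.

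*Hpca*, a myristoylated sensor first described in hippocampus, was detected in 8 of 8 DS cells and 2 of 9 alpha cells. The ON-OFF DS signals were 79710, 16382, 22095 and 11957, and the ON DS signals 4746, 25131, 11170 and 176300. Alpha signals ran from 7 over a median of 81 to 31261. The alpha cells above the threshold were OFF S alpha 15 (31261) and OFF S alpha 14 (4345), both rod-rich, so DS and alpha ranges overlapped. Of the cells that were not rod-rich, 5 of 5 DS and 0 of 3 alpha cells had *Hpca*. All 4 OFF S alpha cells, the only alpha subtype with *Hpca*, were rod-rich. Rod content and subtype therefore cannot be told apart for the OFF S alpha cells, and the part of rod RNA was not tested. ON alpha 13 and OFF T alpha 19 were rod-rich without *Hpca*, as were OFF S alpha 16 and 18. Neither OS cell had it (43 and 10), nor did the ON alpha cells (61 and 226). Among the other subtypes 7 of 10 had it, with the highest signals in SbC 25 (99506), LED 29 (84334) and PixON 27 (56757). These values are from the main probe set. A second *Hpca* probe set was detected in 3 cells only, ON DS 4, OFF S alpha 14 and PixON 27, and correlated with the main one at r = 0.45.

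*Vsnl1*, the related visinin-like sensor, was detected in 7 of 8 DS cells (461 in ON DS 3, then 15856 to 76584), 8 of 9 alpha cells and 8 of 10 other cells. The 3 OFF T alpha cells were close to each other, at 36842, 30309 and 32569, while the OFF S alpha cells had 24504, 19934, 110953 and 7362. The ON alpha cells differed, with 55191 in ON alpha 12 and 371 in ON alpha 13. A second *Vsnl1* probe set was detected in ON-OFF DS 6 and EyeWire 6sn 22 only. At the main probe set, all 5 cells without *Vsnl1* were rod-rich, and 11 of 11 cells that were not rod-rich had it. The log2 signal had r = -0.62 with the mean rod marker level, -0.60 with the cone and -0.54 with the bipolar cell marker level, and the part of such RNA in this was not tested.

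The other sensors and *Necab2* were sparse. *Hpcal4*, a hippocalcin-like sensor, was detected in ON-OFF DS 6 (31601), ON alpha 13 (16005), J-RGC 11 (14403), EyeWire 6sw 21 (11910), ON alpha 12 (10272) and LED 29 (6669). *Ncald* was detected in EyeWire 6sn 22 (16731), LED 29 (14138), ON-OFF DS 8 (10127) and ON DS 3 (9676), and in 0 of 9 alpha cells (upper exact limit 33.6%). The other *Ncald* probe sets were detected in no cell. *Necab2* had its highest signal in SbC 26 (302025), the cell with the fewest detected genes, and was also in J-RGC 11 (17959), LED 29 (10624), ON-OFF DS 5 (8976) and ON alpha 12 (4485). The other SbC cell had a *Necab2* signal of 16. LED 29 was the only cell with *Hpcal4*, *Ncald* and *Necab2* together.

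**Figure D2:**
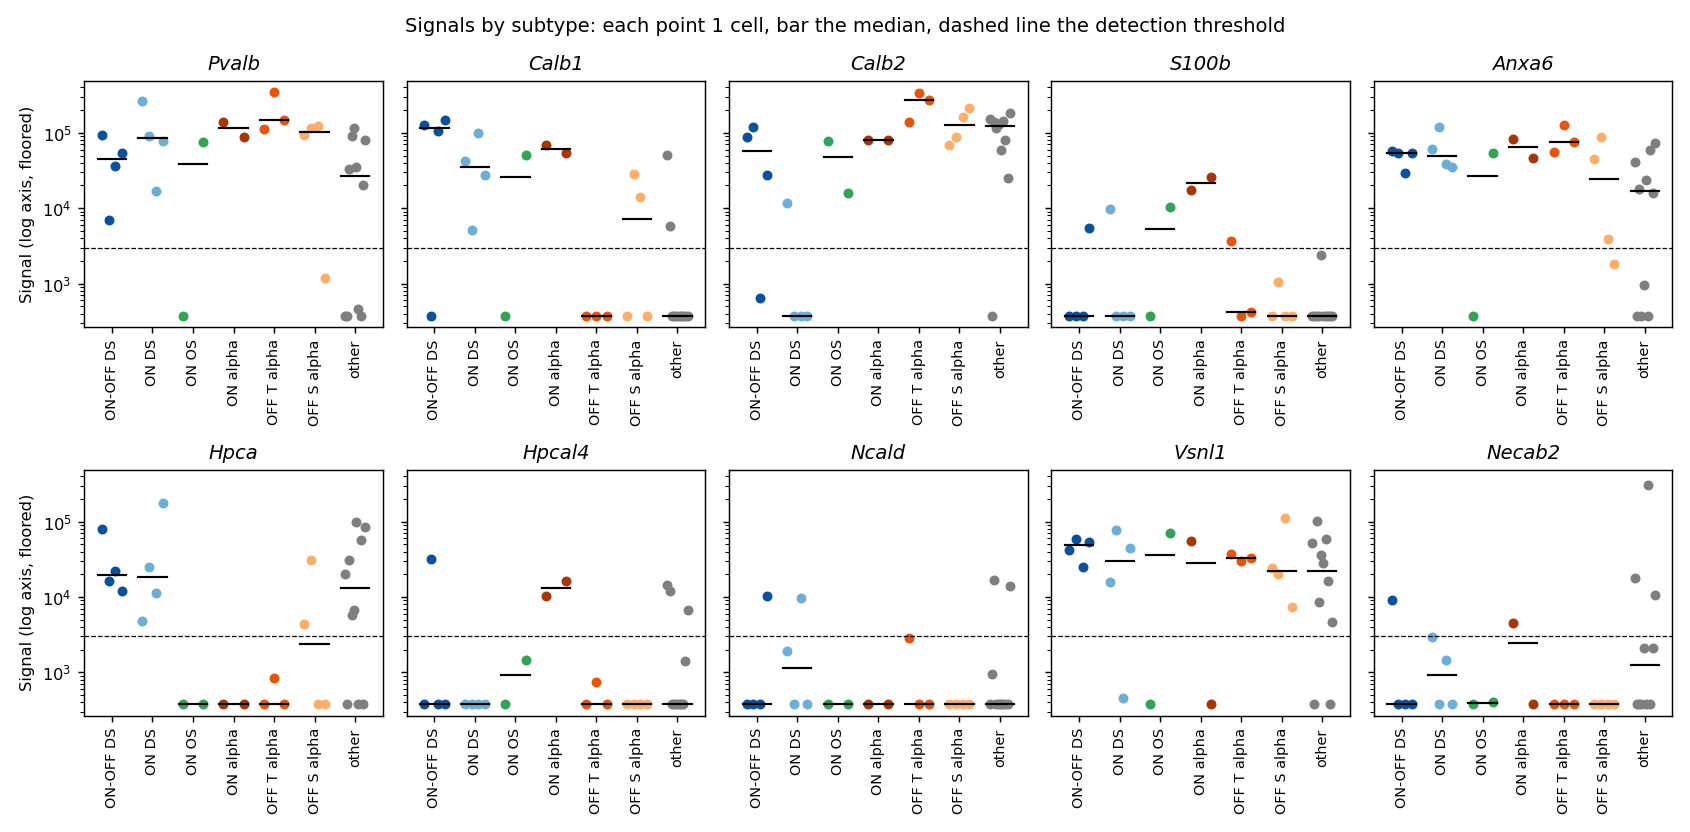
Signal of each gene (log axis, values under 375 drawn at 375) by subtype, with 1 point per cell, the median of the floored signals as a bar and the threshold of 3000 as a dashed line. *Calb1* and *Hpca* lie above the threshold in most DS cells and *Calb2* in every alpha cell, while *S100b*, *Hpcal4*, *Ncald* and *Necab2* lie at the floor in most cells.

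The first comparison asked which of the genes differ between DS and alpha cells. The median log2 signal was at least 4-fold (2 on the log2 scale) higher in DS cells for *Calb1* and *Hpca* and lower for *Calb2*. For *Calb1* the median was 15.98 in DS cells (SD 2.99, n = 8) and at the floor of 8.55 in alpha cells (SD 3.51, n = 9). The medians thus differed by 7.43, a value set by the floor on the alpha side. The mean log2 signals, which take in the 4 alpha cells with *Calb1*, were 14.80 in DS cells and 11.46 in alpha cells, 3.35 apart. For *Hpca* the median was 14.22 in DS cells (SD 1.66) and at the floor in alpha cells (SD 2.26). The medians differed by 5.66 against the floor, and the mean log2 signals by 4.71. For *Calb2* the median was 11.42 in DS cells (SD 3.70) and 17.09 in alpha cells (SD 0.84), a difference of -5.67, or -5.01 between mean log2 signals. The differences of means exceeded the SD of both classes for *Hpca* and *Calb2* but not the alpha SD for *Calb1*, and the ranges overlapped for all 10 genes. Among the 7113 genes detected in 3 or more cells, 7.07% were at least 4-fold higher in DS cells and 11.6% lower, and 0.0281% had ranges apart. The median difference was 0 over the 10 genes and 0 over all genes. With the mean over all probe sets of a gene in place of the highest one, the *Calb1* difference was 2.02 and that of *Hpca* 2.99. Without the rod-rich cells (5 DS and 3 alpha cells left) the *Calb2* difference was -2.36, and *S100b* passed 4-fold as well at -3.30. Leaving out any 1 cell kept *Calb1* between 4.81 and 8.06, *Hpca* between 5.45 and 5.88, and *Calb2* between -7.77 and -3.56. The lowest *Calb1* value came without any 1 of OFF T alpha 17, 19 and 20 and OFF S alpha 14 and 18, and the *Calb2* value nearest to 0 without any 1 of ON-OFF DS 7 and ON DS 2, 3 and 4.

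Within the DS class, ON-OFF DS and ON DS cells differed in *Calb2*. The median log2 signal was 15.57 in ON-OFF DS cells (SD 3.47, n = 4) and at the floor in ON DS cells (SD 2.49, n = 4). The medians differed by 7.02 against the floor, and the mean log2 signals of 14.33 in ON-OFF DS cells and 9.79 in ON DS cells by 4.54, while ON-OFF DS 7 (639) lay below ON DS 1 (11810). *Calb1* had a median of 16.82 in ON-OFF DS cells (SD 4.20) and 15.06 in ON DS cells (SD 1.79), a difference of 1.77. The differences were -0.93 for *Pvalb*, 0.16 for *Anxa6* and 0.18 for *Hpca*. These 4 were each smaller than the SD in both subtypes. Of all genes, 21.2% were at least 4-fold higher in ON-OFF DS cells, 8.06% lower, and 2.09% had ranges apart, and 1, 0 and 0 of the 10 genes were. The count became 2 when any 1 of the ON DS cells was left out, through *Calb1* (without ON DS 1 or 3) or *Ncald* (without ON DS 2 or 4). Without the rod-rich cells *Calb1*, *Calb2* and *Hpca* (-2.02) passed 4-fold, with 3 ON-OFF DS and 2 ON DS cells left.

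The OFF T alpha and OFF S alpha cells differ in how long they respond to a dark step. *Anxa6* had a median log2 signal of 16.22 in OFF T alpha cells (SD 0.59, n = 3) and 13.69 in OFF S alpha cells (SD 2.71, n = 4), a difference of 2.52. *Calb1* was in 0 of 3 OFF T alpha cells, all at the floor, and in 2 of 4 OFF S alpha cells, whose median of 11.17 (SD 3.34) lay midway between a cell at the floor and OFF S alpha 16. The medians differed by -2.62 against the floor, and the direction alone is read here. Both differences were smaller than the SD of the OFF S alpha cells, and no gene of the 10 had ranges apart. Of all genes, 25.1% were at least 4-fold higher in OFF T alpha cells, 8.77% lower, and 4.39% had ranges apart, against 1, 1 and 0 of the 10. *Calb2* was in all 7 cells and differed by 1.17, more than the SD of either subtype (0.66 in OFF T alpha and 0.76 in OFF S alpha cells), with overlapping ranges. The *Anxa6* difference was 0.74 without OFF S alpha 16 or 18, and that of *Calb1* was 0 without OFF S alpha 15 or 16. *Hpca*, in 0 of 3 OFF T alpha and 2 of 4 OFF S alpha cells, passed 4-fold without OFF S alpha 16 or 18. All 4 OFF S alpha cells and 1 of 3 OFF T alpha cells were rod-rich, so rod content and subtype cannot be told apart here.

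ON alpha cells were set against OFF alpha cells to compare polarity within a class. *Calb1* had a median log2 signal of 15.89 in ON alpha cells (SD 0.22, n = 2) and was at the floor in OFF alpha cells (SD 2.82, n = 7). The medians differed by 7.34 against the floor, and the mean log2 signals by 5.70, since OFF S alpha 15 and 16 had *Calb1*. *S100b* had 14.37 in ON alpha cells (SD 0.42) and the floor in OFF alpha cells (SD 1.27). The medians differed by 5.82 against the floor and the mean log2 signals by 5.11. *Hpcal4* had 13.65 in ON alpha cells (SD 0.45) and the floor in OFF alpha cells (SD 0.37). The medians differed by 5.10 against the floor and the mean log2 signals by 4.95. For these 3 genes both ON alpha cells lay above all 7 OFF alpha cells at the main probe set. At the second *S100b* probe set the ranges overlapped. ON alpha 13 (1756, below the threshold) lay there below OFF T alpha 17 (7160). At the probe sets read, 2.98% of all genes had ranges apart in either direction. The ON alpha group held 2 cells only. Of all genes, 27% were at least 4-fold higher in ON alpha cells and 7.2% lower, against 3 and 1 of the 10. The median difference was 0.42 over all genes and 0.08 over the 10. *Vsnl1* had a median of 12.15 in ON alpha cells (SD 5.09) and 14.89 in OFF alpha cells (SD 1.17), but the difference of -2.74 turned to 0.86 without ON alpha 13 and to -6.34 without ON alpha 12. *Calb2* was detected in every alpha cell and differed by -1.04, with a median of 16.29 in ON alpha and 17.33 in OFF alpha cells. *Pvalb* differed by -0.03.

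**Figure D3:**
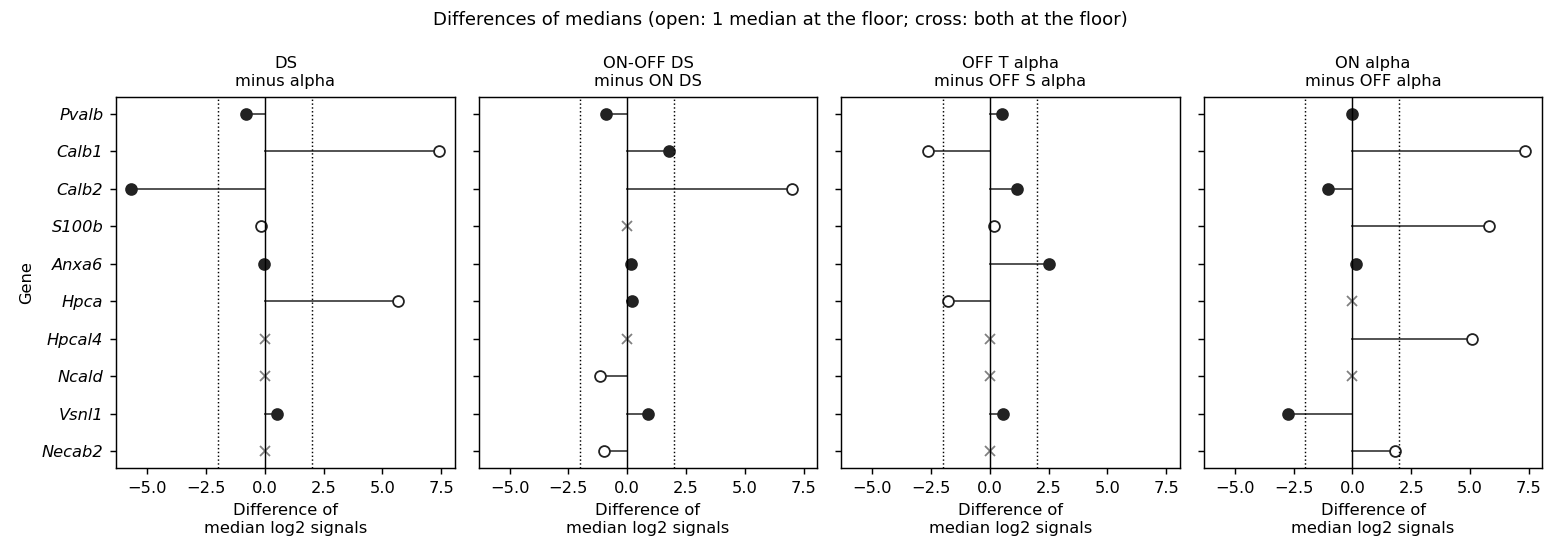
Difference of median log2 signals for each gene in the 4 comparisons, with dotted lines at 4-fold. Open circles have 1 median at the floor, which sets their value, and crosses have both medians at the floor. *Calb1* lies at 7.43 for DS minus alpha and at 7.34 for ON alpha minus OFF alpha.

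Each of the 29 cells had *Calb1* or *Calb2*. Both were detected in 9 cells, *Calb1* alone in 5 and *Calb2* alone in 15. The 5 cells with *Calb1* alone were ON DS 2, 3 and 4, ON-OFF DS 7 and EyeWire 6sw 21, and the 15 with *Calb2* alone included 5 of the 9 alpha cells and 8 of the 10 other cells. The log2 signals of *Calb1* and *Calb2* had r = -0.47 (rho = -0.47, n = 29 cells, falling to -0.54 without the 2 cells farthest from the median in *Calb1*). This was the lowest of the 45 pairs. *Pvalb* and *Anxa6* had the highest, r = 0.51 (rho = 0.54), and were detected together in 21 cells. *Calb1* and *S100b* had r = 0.44 (rho = 0.36), and *Pvalb* and *S100b* had r = 0.38 (rho = 0.49), with all 6 *S100b* cells positive for *Pvalb*. *S100b* and *Hpca* had r = -0.32 and shared 2 cells. The median over the 45 pairs was r = 0.08, and over all pairs of the 7113 genes it was 0.03. The points of a pair share a library, its amplification and its depth, so the values are descriptions.

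**Figure D4:**
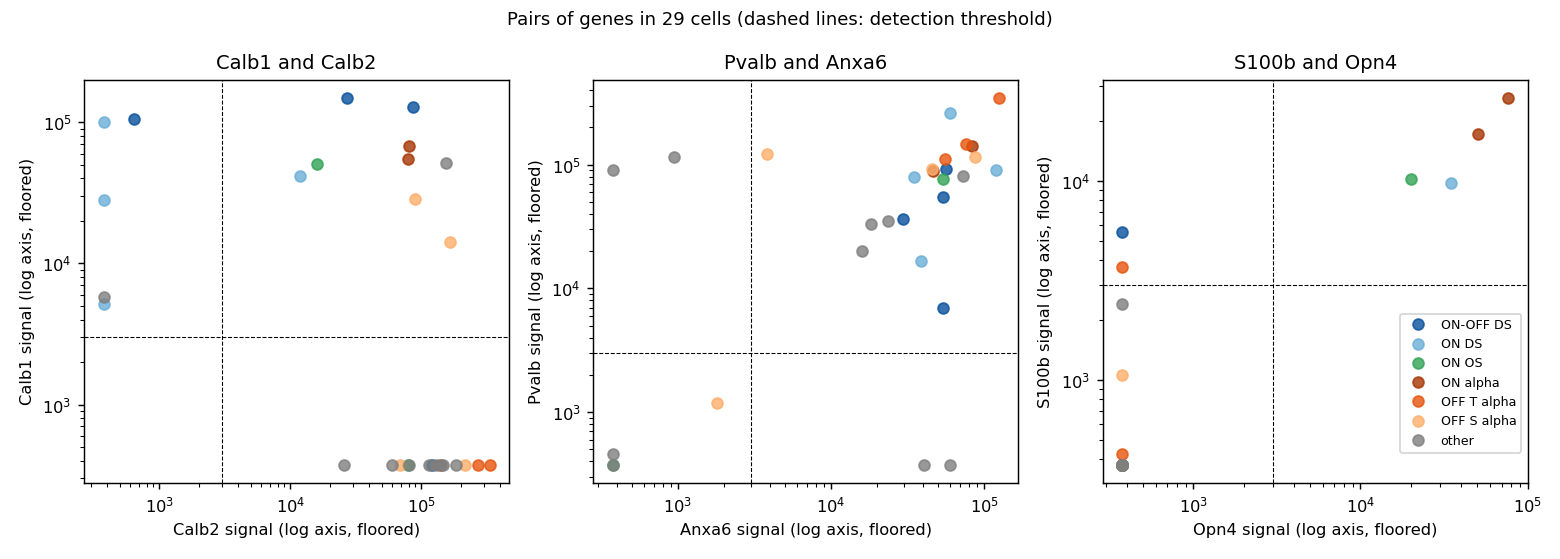
Signals of *Calb1* against *Calb2*, *Pvalb* against *Anxa6* and *S100b* against *Opn4* in the 29 cells (log axes, values under 375 drawn at 375), colored by subtype, with dashed lines at 3000. No cell lies below both lines at 3000 for *Calb1* and *Calb2*, and the 4 cells with *Opn4* all have *S100b* at its main probe set.

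The number of the 10 genes detected per cell ranged from 1 in ON vOS 9, which had *Calb2* only, to 8 in ON-OFF DS 8, ON alpha 12 and LED 29, with a median of 5. DS cells had a median of 5.5, alpha cells of 5 and the other subtypes of 4. The 29 cells showed 24 distinct combinations, 20 of them in a single cell. The commonest, *Pvalb*, *Calb1*, *Anxa6*, *Hpca* and *Vsnl1* without the others, was shared by ON-OFF DS 7, ON DS 2 and ON DS 4. *Pvalb*, *Calb2*, *Anxa6* and *Vsnl1* without *Hpca* or others was shared by OFF T alpha 19 and 20, and OFF T alpha 17 differed from them by *S100b* alone. *Pvalb*, *Calb2*, *Anxa6* and *Vsnl1* were detected together, with or without others, in 15 cells, of which 4 were DS, 1 OS, 7 alpha and 3 other cells. Pairs of cells of 1 subtype differed in a mean of 2.26 of the 10 genes (22.6%, 23 pairs), and pairs of different subtypes in 3.59 (35.9%, 383 pairs). Over all 7113 genes these shares were 34.6% and 36.3%. The 3 pairs of OFF T alpha cells differed in a mean of 0.667 genes (6.67%) and the 6 pairs of ON-OFF DS cells in 3 (30%). Over all 7113 genes the shares were 33.7% for OFF T alpha and 36.1% for ON-OFF DS pairs. Pairs that share a cell are not independent. The count of genes of the set per cell had r = 0.26 with the number of detected genes. Among the 11 cells that were not rod-rich there were 10 combinations, with a median of 6 genes per cell.

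**Figure D5:**
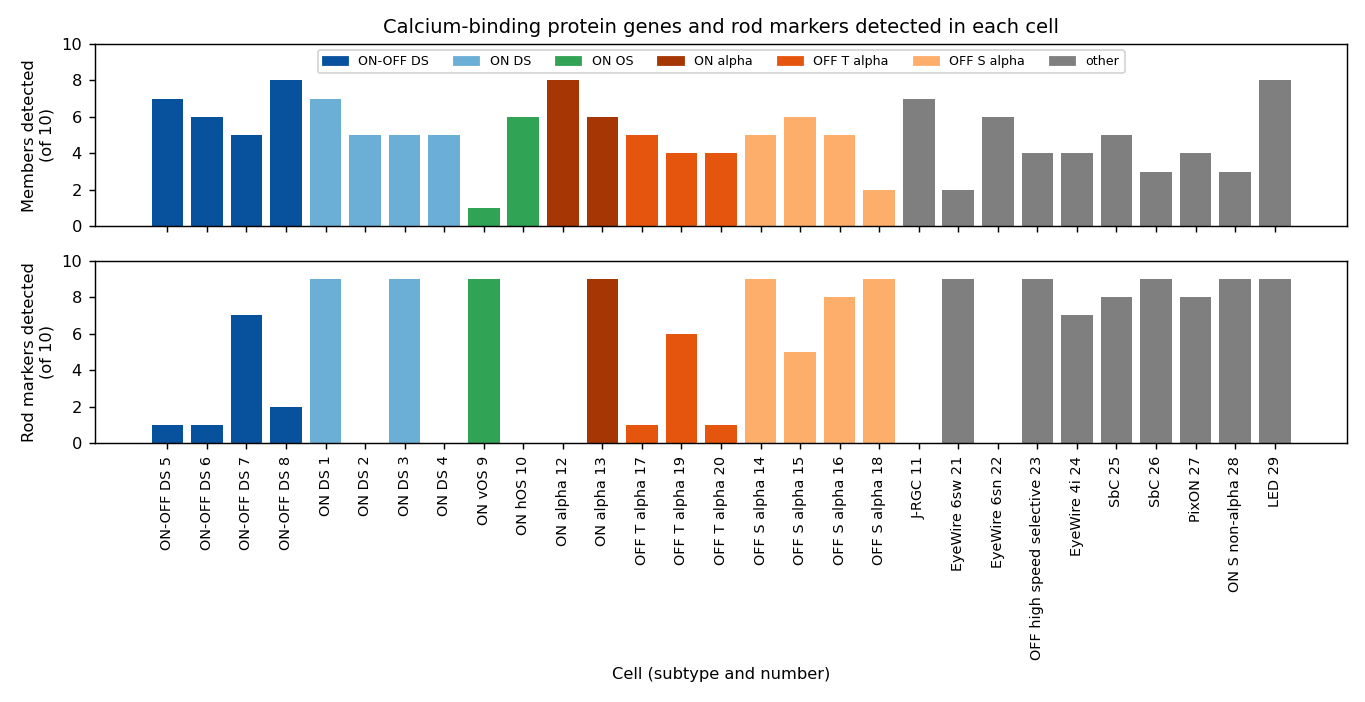
Number of the 10 calcium-binding protein genes detected in each cell (top) and number of the 10 rod markers detected (bottom), with bars colored by subtype. The counts run from 1 in ON vOS 9 to 8 in ON-OFF DS 8, ON alpha 12 and LED 29, and rod markers from 0 to 9.

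For each gene the most alike profiles were sought among the other 7112 genes detected in 3 or more cells, by Pearson r of log2 signals over the 29 cells. The highest of all was *Opn4* with *S100b* (r = 0.85, rho = 0.73, or r = 0.73 leaving out the 2 cells most distant from the *S100b* median). *Opn4* was detected in ON alpha 13 (76724), ON alpha 12 (50210), ON DS 1 (34985) and ON hOS 10 (20203). All of them had *S100b* at its main probe set, and ON alpha 13 did not at the second. The *Opn4* signal was at most 356 in the other 25 cells. The order of the 4 *Opn4* signals differs from that of *S100b* in the last pair only. *Rab37* (0.82), a small GTPase, and *Hs3st4* (0.80), a heparan sulfate sulfotransferase, followed for *S100b*. Leaving out the 2 cells most distant from the *S100b* median gave 0.76 for *Rab37* and 0.62 for *Hs3st4*, which was detected in 3 cells. *Anxa6* was most like *Pianp* (0.82), *Prkar1b* (0.78), a regulatory subunit of protein kinase A, and *Rph3a* (0.76), the rabphilin of synaptic vesicles. Rank correlations were lower, with rho = 0.48 for *Pianp* and *Prkar1b* and 0.55 for *Rph3a*. *Rph3a* (0.70) was also among the closest for *Pvalb*, beside *Slc4a3* (0.72), an anion exchanger, and *Endod1* (0.69).

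For *Calb1* the closest genes were *Mars1* (0.75), a methionyl-tRNA synthetase, *Pkd1* (0.66) and *Ano6* (0.64), and for *Calb2* they were *Idh3g* (0.66), a subunit of isocitrate dehydrogenase, *Laptm4b* (0.62) and *Syt7* (0.60), a synaptotagmin that senses calcium. For *Laptm4b* rho was 0.34. *Hpca* was closest to *Nell1* (0.64), *Rims3* (0.64), an active zone protein, and *Prkcb* (0.62), a calcium-dependent protein kinase, and *Vsnl1* to *Cend1* (0.68), *Gprasp1* (0.67) and *Camta1* (0.67), a calmodulin-binding transcription factor. The sparse genes had *Trpc1* (0.77), a cation channel, *Rev1* (0.76) and *Fkbpl* (0.73) for *Hpcal4*, and *Arhgef15* (0.76), *Pced1a* (0.72) and *Vps13c* (0.70) for *Ncald*. *Ncald* was in 4 cells, and leaving out the 2 most distant cells gave 0.59, 0.48 and 0.65 for its 3 genes in that order. For *Necab2* the closest genes were *P3h4* (0.73), *Pdzd4* (0.71) and *Lgi1* (0.71), a secreted synaptic protein. Without SbC 26 these became 0.46 for *P3h4*, 0.45 for *Pdzd4* and 0.52 for *Lgi1*, and leaving out the 2 most distant cells gave 0.16, 0.58 and 0.44 in the same order of genes.

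Other genes of the same families give the setting. Of 65 listed genes 57 had a value, 42 were detected in at least 1 cell, and 30 in 3 or more. Of these 30, 2 were at least 4-fold higher and 10 lower in DS cells than in alpha cells (6.67% and 33.3%, against 7.07% and 11.6% of all genes). As for the 10 genes, a difference with 1 median at the floor takes its size from the floor. Among 9 neuronal calcium sensors, *Kcnip1* was in 23 cells, *Rcvrn* in 20, and *Hpcal1* and *Guca1a* in 18 each. *Hpcal1*, a close relative of hippocalcin, was in 6 of 8 DS and 4 of 9 alpha cells, and its median was higher in DS cells by 5.11 on the log2 scale. *Kcnip2*, a subunit of A-type potassium channels, was in 1 of 8 DS cells and 6 of 9 alpha cells (-7.07). Within the alpha class *Kcnip2* was lower in ON alpha than in OFF alpha cells (-8.44), so the -7.07 does not describe all alpha cells. *Kcnip4* differed by -2.33 between DS and alpha cells. *Rcvrn* (-4.48), *Guca1a* (-4.21) and *Guca1b* (-6.15), the recoverin and guanylate cyclase activator genes of photoreceptors, were also lower in DS cells. The rod markers differed between these classes as given above (3 of 8 and 6 of 9 cells rod-rich). The part of photoreceptor RNA in these differences was not tested.

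Of 11 S100 genes with a value, *S100a10* was in 16 cells, while *S100a3*, *S100a4*, *S100a5*, *S100a6*, *S100a8*, *S100a9* and *S100g* were in no cell. Of 10 annexins, *Anxa5* was in 25 cells, *Anxa7* in 19, *Anxa2* in 13 and *Anxa3* in 2, and *Anxa4*, *Anxa8*, *Anxa9*, *Anxa10* and *Anxa13* were in none. *Anxa7* (-2.71) and *Anxa2* (-2.20) were lower in DS cells than in alpha cells, and *Anxa5*, like *Anxa6*, differed little (-0.43). In the secretory pathway, *Sparcl1* was in 27 cells, *Sdf4* in 20, *Calu* (calumenin, -3.29) in 16 and *Nucb1* in 14, and *Rcn3* was in none. Of the CaBP, calneuron and secretagogin group, *Cabp4*, a photoreceptor gene, was in 12 cells, *Necab3* in 7, *Caln1* in 6 and *Cabp5* in 3, and *Cabp1* and *Cabp7* were in none. Among further EF-hand genes, *Pdcd6* was in 17 cells, *Pef1* (-2.37) in 16, *Cetn3* (2.58), a centrin, in 11 and *Cetn2* in 9. *Efhd2* was in 6 cells, none of them DS (-2.67). *Ppp3r1*, the regulatory subunit of calcineurin, was in 24 cells and differed by 1.33.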

How the data were processed

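The 29 arrays measured cDNA of single RGCs, reverse transcribed with an oligo dT primer and amplified by PCR. The authors deposited MAS5 intensity values for 45101 probe sets. No source used here gives the MAS5 version. Of the probe sets, 34958 named 1 gene in the platform annotation, 932 several and 9211 none, and the last 2 kinds were left out. Each gene was represented by its brightest probe set on the mean log2 scale. The 10 genes had 21 probe sets, and 11 were not the one read, of which 8 were detected in at most 2 cells. Groups came from the labels. The genes and gene lists were chosen with earlier results of these data known.

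Cells were compared by differences of median log2 signals, without tests, because no animal is named. Alternatives covered the threshold, floor, probe set, fold, quantile normalization, correlation measure and cells left out. Named were the 10 genes, their 3 highest correlates, and in each family list the 4 genes in most cells and those in none. *Kcnip2*, *Kcnip4*, *Guca1b* and *Efhd2* were added after their values were seen, because they passed 4-fold. The number of arrays limits the precision. Promoter sequences are from RefSeq. Correlation and difference code was tested on simulated data. Python 3.11.15, numpy 2.4.6, scipy 1.17.1, pandas 2.3.3 and matplotlib 3.10.9 were used.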

Additional observations from a re-analysis of the deposited data

Results flagged for a closer look

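In the 3 subtypes of 4 cells, 30 sets of 4 log2 signals were examined for a cell far from the other 3, and 10 had one. For values without a floor chance gives about 1 in 20, a rate that is not valid here. In 7 of the 10 the other 3 cells were all set to the log2 floor, so that any cell above the floor stands apart by construction.

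Among ON-OFF DS cells, *S100b* was 5514 in ON-OFF DS 8 and at most 56 in the others. *Hpcal4* was 31601 in ON-OFF DS 6 and at most 60 in the others, and *Necab2* was 8976 in ON-OFF DS 5 and at most 7 in the others. *Ncald* was 10127 in ON-OFF DS 8 and at most 225 in the others. *Calb1* was 59.9 in ON-OFF DS 6, against 105542 or more in the others, and *Anxa6* was 29734 in ON-OFF DS 7, against 53997 or more.

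Among ON DS cells, *Calb2* (11810) and *S100b* (9793) were high in ON DS 1, with at most 34 and 96 in the others. ON DS 1 was also the DS cell with *Opn4* (34985), and it was rod-rich. Among OFF S alpha cells, *Pvalb* was 1188 in OFF S alpha 18, against 92551 or more in the others, and *S100b* was 1057 in OFF S alpha 15, which is below the threshold of 3000, against at most 126.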

How the results depend on the processing

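The 3 genes past 4-fold between DS and alpha cells kept their direction and stayed past it in all alternatives, where the count was 3 to 4, and it was 3 when any 1 cell was left out. With means the *Calb1* difference between DS and alpha cells was 3.35 in place of 7.43. For ON alpha minus OFF alpha the count was 3 to 6 under other settings and 4 when any 1 cell was left out. The 4 genes were not always the same, as *Necab2* took the place of *Vsnl1* without ON alpha 13. The count for ON-OFF DS minus ON DS, 1, became 2 with quantile normalization or no floor and 3 at 2-fold or without the 18 rod-rich cells, and was 1 to 2 when 1 cell was left out. The count for OFF T alpha minus OFF S alpha, 2, became 1 with quantile normalization or a floor of 1 times the trimmed mean, 5 with no floor, 4 at 2-fold or with mean in place of median log2 signals, an alternative chosen after the data were seen, and 0 at 8-fold or with the mean over probe sets, and was 1 to 2 when 1 cell was left out. It has no value without the rod-rich cells, since no OFF S alpha cell remains. Distinct combinations were 10 without the rod-rich cells, where 11 cells allow at most 11, and 23 to 24 when 1 cell was left out. *Vsnl1* in ON alpha minus OFF alpha (-2.74) turned to 0.67 without the rod-rich cells, where 1 ON alpha and 2 OFF alpha cells remain. Leaving out 1 cell gave -6.34 to 0.86. The causes were not tested. The median r over pairs was 0.03 to 0.11. Of 60 counts of cells per gene under other settings 10 moved by over 1.5 times, 9 of them on leaving out the rod-rich cells. Only 11 cells remain in that setting, so a count falls there even where the share of cells with the gene does not. These 9 moves therefore cannot show whether detection depends on rod content. The remaining move was *Necab2*, in 8 cells in place of 5 with a detection threshold of 1 times the trimmed mean. No paired analysis was possible because cell numbers are unique to a cell. With 1 to 4 cells per subtype, absence of a gene from a subtype was not detectable from absence in these cells.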
